A study of Oncorhynchus tshawytscha with 15 samples.

Results

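The contigs described here are the 300 assembled gill transcripts of juvenile Chinook salmon that carried the most reads among those whose reads were mostly not unique to them. A contig is a stretch of transcript sequence assembled from the reads themselves, and a read is unique when it aligned to a single contig. For each contig, the total reads and the unique reads were summed over the 15 libraries. The contigs with unique reads below 50% of total reads, 1601 of 183740, were kept, and the 300 with the most total reads were taken. Membership therefore rests on total reads and on the unique share, and neither is a finding in itself. Reads that also aligned elsewhere are called shared reads here and were obtained as total minus unique reads.

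Gill RNA came from fall-run juveniles of the Merced River Hatchery, 5 months after hatching and raised at 12°. Pools of 11 fish were held for 3 hr at 15°, 18°, 21°, or 25° and then for 1 hr at 12°, whereas the 12° control pools were handled in the same way without warming. Each temperature had 3 pools, made on separate days from different fish, and each pool gave 1 RNAseq library. The paper states that a part of the 25° fish lost responsiveness or died while still in the warm water, so the 25° pools do not hold only fish with the full exposure and recovery. Pooling leaves the spread between individual fish unseen, and fewer cells of a type cannot be told apart from less RNA per cell in bulk gill tissue. All 4 heated groups were compared with the same 3 control libraries.

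The gill is the organ of gas exchange and ion regulation in fish and is in direct contact with the water. Salmonids descend from an ancestor whose whole genome was duplicated, and many genes persist as pairs of similar copies. Their genomes are also rich in repeated mobile elements, parts of which can be found in transcripts. Reads from similar copies, from conserved gene families, or from repeats can align to several contigs of an assembly, and so can reads from transcripts that the assembler broke up or assembled more than once. The contigs carry numbers without gene names in the table used here, and which of these situations applies to any of the 300 contigs was not tested.

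Contig names begin with 1 of 2 prefixes, here shortened to KT3A and denovo, and 1859 numbers occur under both, so the prefix is given with each number. Of the 300 contigs, 218 were KT3A contigs (72.7%, against 72.3% of all contigs) and 82 were denovo contigs. The near-equal shares hold for the 300 only, since 1413 of all 1601 contigs below 50% unique reads were KT3A contigs. Shared reads were 4.31% of the reads of all KT3A contigs and 1.27% of those of all denovo contigs. The contigs were short, with a median length of 170 bp (range 110 to 5131 bp) against 582 bp over all contigs. In all, 216 of the 300 (72%) were under 200 bp, compared with 7.99% of all contigs. The KT3A contigs spanned 110 to 208 bp and had a median unique share of 9.28%. The denovo contigs had a median length of 691.5 bp and a median unique share of 34.7%. Only 22 of the 300 contigs reached 1000 bp, the longest being denovo_contig_34019 (5131 bp) and denovo_contig_17543 (4035 bp). The other 1301 contigs below 50% unique reads had a median length of 165 bp, so shortness was shared with contigs that ranked lower by total reads.

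**Figure D1:**
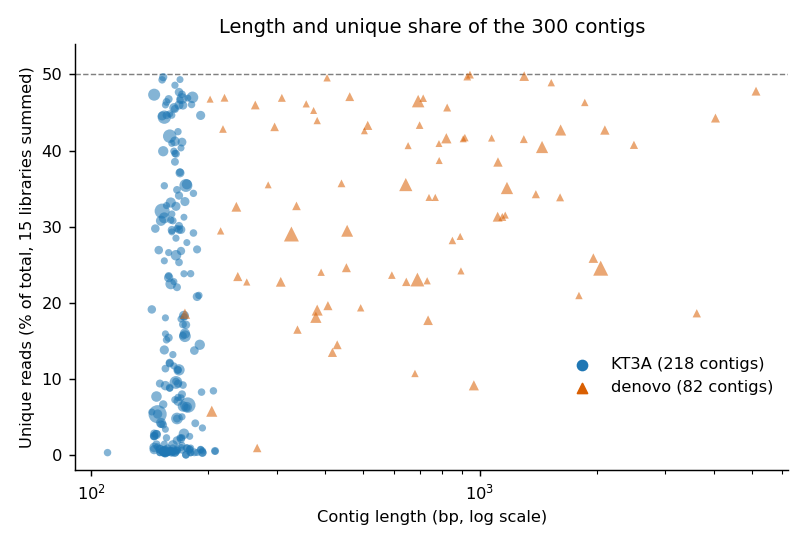
Length in bp (log axis) against the unique share of each of the 300 contigs, with reads summed over the 15 libraries and symbol area growing with total reads. The 218 KT3A contigs lie between 110 and 208 bp at every unique share, the 82 denovo contigs reach 5131 bp, and the dashed line is the 50% limit used to choose the contigs.

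Unique shares ran from 0.0123% to 49.97%, with a median of 19.5%. In 63 contigs, 62 of them KT3A, unique reads made up less than 1% of the total. A further 53 contigs lay between 1% and 10%, 78 between 10% and 30%, and 106 between 30% and 50%. The lowest share was that of KT3A_contig_761462 (175 bp), with 3 unique reads among 24309. Its total reads ran from 583 to 2936 over the 15 libraries, and 12 libraries held no unique read of it. In 30 of the 300 contigs at least 1 library had 0 unique reads beside 100 or more shared reads, with up to 2209 shared reads in such a library. How the alignment divided shared reads among contigs is not given in the sources used here, and it bears on every total of these contigs.

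At the limits of the choice, KT3A_contig_1325880 was the last contig inside, with 14408 total reads, and KT3A_contig_783732 was the next outside, with 14386 reads of which 68 were unique. The highest unique share inside was that of denovo_contig_51739 (49.97%), followed by denovo_contig_8043 (49.8%). Just outside lay denovo_contig_80239, with 50.5% unique reads and 96551 total reads. Of the 300 contigs, 277 would also have been chosen from the 3 control libraries alone. Among the 23 that would not, 7 had a unique share of at least 50% in the controls and 16 had too few control reads. A contig that entered through its reads in heated libraries had to be higher there, so the calls below are given with and without these 23.

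The 300 contigs held 36.0% of all shared reads in the experiment but 1.04% of all reads. Shared reads were 2.24% of all reads, and 136325 contigs had none. Library totals ran from 58654252 to 90869450 reads, and 97.6% to 97.8% of them were unique. Counts scaled to a common library size with TMM normalization (CPM) had a median over the 300 contigs of 23.2 at 12°, against 0.924 over the 155951 contigs tested. Per length, in the RPKM values, the median was 116 at 12° against 1.49 over the contigs tested. KT3A_contig_634730, of 148 bp, had the highest RPKM among the 300 contigs, 1428. The median coefficient of variation of CPM between the 3 control libraries was 14.2% for total reads and 19.4% for unique reads of the 300 contigs, compared with 21.3% for the total reads of all contigs tested. The rule took contigs with many reads, and counting error weighs less at higher counts. Nothing is therefore read from these differences in level or spread. A count of 3 reads corresponded to between 0.0306 and 0.0593 CPM in a library, a floor for counting error alone.

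The contigs with the most reads showed different patterns over temperature. KT3A_contig_634730 led with 273689 reads. Its CPM was 151, 148, and 302 at 12°, 160, 322, and 253 at 15°, 208, 204, and 328 at 18°, 271, 222, and 281 at 21°, and finally 335, 272, and 369 at 25°. Libraries at every heated temperature overlapped the controls, which themselves spanned a 2-fold range, and the log2 fold change of 0.70 ± 0.26 (SE) at 25° did not pass the test (adjusted p = 0.0691, edgeR). For denovo_contig_57475 (2044 bp), CPM was 146 to 151 in the controls and 195 to 236 at 25°, without overlap, but the log2 fold change of 0.57 ± 0.12 was under the 2-fold limit (edgeR adjusted p = 0.00555). For denovo_contig_70283 (327 bp), CPM was 159 to 183 in the controls and 77.5 to 112 at 25°, again without overlap and with a log2 fold change of -0.83 ± 0.15 that was short of 2-fold (edgeR adjusted p = 0.00231). KT3A_contig_680680 (152 bp) had 123 to 215 CPM in the controls and 115 to 151 CPM at 25°, and these overlapped. The second contig by reads, KT3A_contig_972495, rose with temperature and is described below.

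As a group, the 300 contigs took a slightly larger part of the reads at 25° and a smaller part of those reads was unique. Their reads were 1.06%, 0.985%, and 1.03% of the library in the controls and 1.08%, 1.11%, and 1.07% at 25°, so that every 25° library lay above every control. The choice itself used the 25° reads, and 300 contigs chosen in the same way from the controls alone went the other way, from 1.03% at 12° to 1.01% at 21° and 0.939% at 25°. A choice on the controls favors contigs high at 12°, so that fall was partly built in as well. Scaled by library totals, all contigs tested had a median log2 fold change of -0.44 at 25°. Nothing is read from either move. The share was 1.02% ± 0.0219 (SD, n = 3) at 15°, 1.03% ± 0.0173 at 18°, and 1.03% ± 0.0141 at 21°, against 1.03% ± 0.0392 at 12°. The unique part of their reads was 23.2%, 22.9%, and 22.7% at 12° and 20.8%, 20.1%, and 20.1% at 25°. All 25° libraries lay below all controls, and at 21° the values of 22.0%, 22.1%, and 22.3% also did. At 15° the unique part was 22.2% to 23.7% and at 18° it was 21.9% to 23.0%, and both overlapped the controls. The choice used the unique share of the heated libraries too, and 7 of the 300 contigs had at least 50% unique reads in the controls. A fall was therefore partly built in, and nothing is read from it.

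The 26 contigs upregulated at 25° were also left out of the sums. Since they were picked for being high at 25°, the share at 25° had to fall without them, and nothing is read from that fall. The others held 0.816% to 0.848% of the library at 25° against 0.944% to 1.03% at 12°, and the unique part of their reads was 21.9% to 22.8% at 25° against 22.7% to 23.3% at 12°. In CPM, the direction for these remaining contigs was not the same, with 9776 to 10792 CPM in sum at 25° overlapping 8793 to 10126 CPM at 12°. The scaling matters at 25°, since TMM set effective library sizes to 78.6% to 83.9% of the totals there and to 101% to 108% at the other temperatures. No test was made of these sums, because the contigs were chosen on the same reads.

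**Figure D2:**
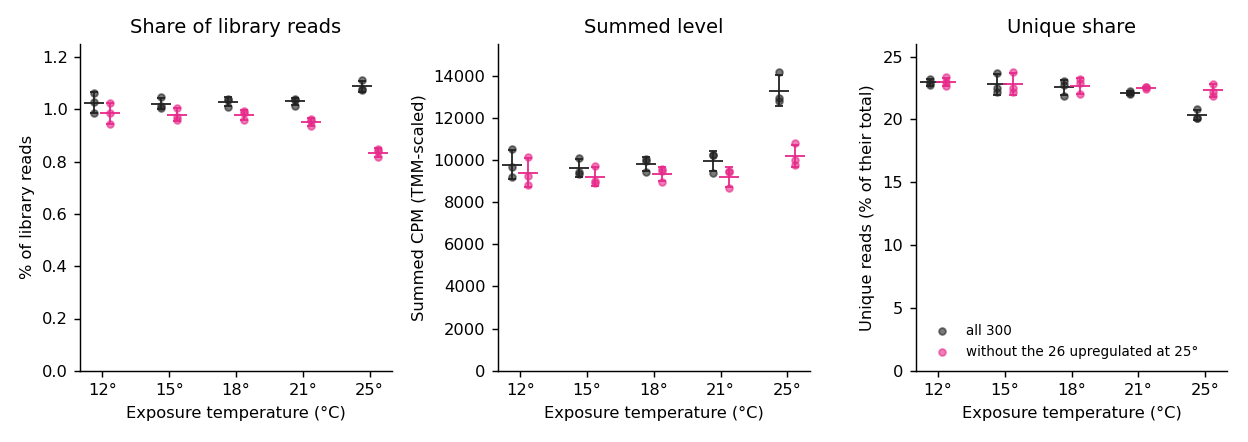
Share of library reads (%), summed CPM, and unique share of their reads (%) in each library for the 300 contigs (black) and without the 26 upregulated at 25° (pink), by exposure temperature. Points are libraries, dashes are means, and bars are the SD of 3 libraries. At 25° all 300 contigs together held 1.07% to 1.11% of reads, and the unique share was 20.1% to 20.8% against 22.7% to 23.2% at 12°.

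Each contig was then tested on total reads for each temperature against 12°, with edgeR's quasi-likelihood test and Benjamini-Hochberg adjustment over all 155951 contigs. A call required an adjusted p below 0.01 and more than a 2-fold change. At 15°, 0 of the 300 contigs were called in either direction, as were 0% of all contigs tested. Without adjustment, at p below 0.05 and the same fold limit, edgeR gave 1 contig up and 1 down at 15°, and DESeq2 gave 0 adjusted calls. The unadjusted counts in this paragraph stand without the share over all contigs, and nothing is read from them. At 18°, 3 contigs were upregulated against 0.0269% of all contigs, and at 21°, 9 were upregulated against 0.53%. No contig of the 300 was downregulated at 18° or 21°, where 0% and 0.0558% of all contigs were. At both temperatures 0 contigs were down without adjustment by edgeR and 0 with adjustment by DESeq2. Contigs whose 3 pools all lay beyond the controls in CPM numbered 4 above and 5 below at 15° (1.33% and 1.67%, against 4.18% and 4.14% of all contigs), 20 and 11 at 18° (6.67% and 3.67%, against 8.72% and 8.55%), and 30 and 7 at 21° (10% and 2.33%, against 11.5% and 10.8%). All 3 contigs called at 18° were also called at 21° and 25°, and all 9 called at 21° were also called at 25°, in comparisons that share their control libraries.

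At 25°, 26 of the 300 contigs were upregulated (8.67%) and 3 were downregulated (1%), whereas 8.61% of all contigs tested were upregulated and 6.05% were downregulated. The upregulated share was thus near the background, but the choice used the 25° reads, and nothing is read from the match. Of the 26 upregulated contigs, 15 were among the 23 that the controls alone would not have chosen, and so were 3 of 3 at 18° and 8 of 9 at 21°. Among the 277 contigs chosen either way, 0 were called at 18°, 1 was upregulated at 21°, and 11 were upregulated and 3 downregulated at 25°. In total 271 of the 300 contigs were called at no temperature.

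The median log2 fold change of the 300 contigs was -0.01 at 15°, 0.02 at 18°, 0.02 at 21°, and 0.14 at 25°, compared with -0.01, -0.03, -0.02, and -0.09 for all contigs tested. Scaling by library totals instead of TMM shifted the 25° medians to -0.21 for the 300 contigs and -0.44 for all contigs, so the sign of the median of the 300 depended on the scaling while it stayed above that of all contigs under both. At 25°, 92 of the 300 contigs had all 3 pools above all 3 controls in CPM (30.7%, against 22.1% of all contigs) and 28 had all pools below (9.33%, against 25.1%). Scaled by library totals, the counts were 37 above (12.3%, against 14.3%) and 99 below (33%, against 38.8%). The choice used the 25° reads, which favors contigs that rise there over contigs that fall. The differences from all contigs in median and in counts are therefore partly built in, and nothing is read from them.

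The upregulated contigs fell into a steep and a shallow set at 25°. A rise of more than 8-fold was found in 10 contigs, 7 of them KT3A contigs under 200 bp. Of the 10, 9 were outside the choice made from the controls alone. These 9 entered through their heated libraries, so a rise there was needed for them to be described here. Their p-values below are given for completeness and are not taken as evidence of a rise. The remaining 16 rose by 1.13 to 2.34 on the log2 scale. The 9 contigs called at 21° were all among the 10 steep ones.

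The steepest rise was that of denovo_contig_78846 (267 bp), with 36723 reads in all. The controls alone would not have chosen it, and its rise was needed for it to be chosen. It had 0, 12, and 5 reads at 12°, 2, 0, and 4 at 15°, 23, 65, and 123 at 18°, 650, 1031, and 984 at 21°, and finally 10445, 14086, and 9293 at 25°. The libraries of 18°, 21°, and 25° each formed a separate step above the controls, while those at 15° did not leave the control range. The log2 fold change was 7.49 ± 0.51 at 21° (edgeR adjusted p = 0.000177) and 11.68 ± 0.51 at 25° (edgeR adjusted p = 3.15e-07), both set against controls with few reads. Without 12° replicate 2, which held 12 of the control reads, the values were 8.57 and 12.80, and with any 1 library left out they ran from 6.93 to 8.57 and from 11.19 to 12.80. Its unique reads stayed few, with 4 in all control libraries together and 92, 114, and 72 at 25°.

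The next was denovo_contig_41831 (964 bp). Its reads were 31, 45, and 16 at 12°, 32, 52, and 36 at 15°, 226, 192, and 210 at 18°, 1370, 1856, and 1409 at 21°, and finally 19436, 22905, and 16731 at 25°. From 18° upward no library overlapped the controls, though the log2 fold change of 2.83 ± 0.31 at 18° missed the threshold (edgeR adjusted p = 0.0189). It was 5.90 ± 0.30 at 21° and 10.08 ± 0.33 at 25° (edgeR adjusted p = 3.51e-05 and 8.21e-08).

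KT3A_contig_925323 (164 bp) had 0.374 to 0.672 CPM at 12°, 0.574 to 0.725 at 15°, 1.22 to 2.05 at 18°, 4.36 to 9.92 at 21°, and finally 96.8 to 119 at 25°. Groups from 18° upward did not overlap the controls, and the log2 fold change at 25° was 7.51 ± 0.25 (edgeR adjusted p = 8.21e-08). KT3A_contig_768267 (173 bp) had 2.49 to 3.21 CPM at 12°, 2.78 to 3.62 at 15°, 6.97 to 7.10 at 18°, 32.3 to 42.8 at 21°, and finally 288 to 363 at 25°. Its log2 fold change was 1.27 ± 0.13 at 18°, short of the threshold (edgeR adjusted p = 0.0176), and 6.79 ± 0.19 at 25° (edgeR adjusted p = 6.04e-08).

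The 3 contigs called at 18° were KT3A contigs of 164 or 176 bp, and the controls alone would have chosen none of them. KT3A_contig_675350 (164 bp) had 2.70, 2.01, and 2.07 CPM at 12°, 3.73, 3.99, and 3.69 at 15°, 18.9, 16.7, and 17.5 at 18°, 46.2, 38.4, and 32.1 at 21°, and finally 89.9, 82.4, and 84.5 at 25°. No library of any heated group overlapped the controls, including those at 15°, where the log2 fold change of 0.75 ± 0.17 did not pass the test (edgeR adjusted p = 1). At 18° the log2 fold change was 2.99 ± 0.14 (edgeR adjusted p = 0.000313) and at 25° it was 5.24 ± 0.17. Its unique reads gave 3.00 ± 0.24 and 5.35 ± 0.25 at the same temperatures, so total and unique reads moved alike in this contig.

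KT3A_contig_866862 and KT3A_contig_870151 were both 176 bp long, and unique reads made up 0.893% and 0.887% of their reads. The former had 2.09, 1.68, and 1.47 CPM at 12°, 4.34, 1.87, and 4.61 at 15°, 17.0, 12.7, and 17.7 at 18°, 47.4, 31.4, and 34.2 at 21°, and finally 90.1, 102, and 96.9 at 25°. The latter had 2.12, 1.67, and 1.34 CPM at 12°, 2.40, 4.07, and 1.35 at 15°, 11.2, 11.5, and 8.32 at 18°, 27.2, 29.7, and 18.0 at 21°, and finally 70.8, 51.9, and 58.2 at 25°. Both overlapped the controls at 15° and lay wholly above them from 18° upward, with log2 fold changes of 3.19 ± 0.18 and 2.61 ± 0.20 at 18° (edgeR adjusted p = 0.000848 and 0.00357). The call count at 18° rested on single libraries, as 1 of the 3 contigs was called without 12° replicate 2 and 1 without 18° replicate 3, and 0 were left among contigs chosen from the controls alone.

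KT3A_contig_972495 (177 bp) was the only steep riser that the controls alone would also have chosen. Its CPM was 69.7, 74.4, and 69.6 at 12°, 67.4, 81.4, and 74.9 at 15°, 92.4, 93.4, and 89.0 at 18°, 182, 191, and 169 at 21°, and finally 551, 628, and 576 at 25°. The 15° libraries overlapped the controls and the later groups followed each other without overlap. Its log2 fold change was 1.37 ± 0.10 at 21° (edgeR adjusted p = 0.00021) and 3.04 ± 0.13 at 25° (edgeR adjusted p = 2.53e-07), and its unique share stayed between 5.42% and 7.19% in all libraries. KT3A_contig_1036217 (167 bp) differed in having uneven controls, at 15.9, 5.27, and 4.46 CPM, with 175 to 247 CPM at 25° and a log2 fold change of 4.67.

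Among the 16 shallow risers, 10 were KT3A contigs and 9 were also called on unique reads. The largest was KT3A_contig_970726 (150 bp), with a log2 fold change of 2.34, and the smallest was denovo_contig_38274 (823 bp), with 1.13. Of the 22 contigs of at least 1000 bp, 2 were upregulated at 25°, denovo_contig_17263 and denovo_contig_61612, and 0 were downregulated. Over all contigs tested, 8.61% were upregulated and 6.05% were downregulated. The controls alone would not have chosen denovo_contig_17263. The longest, denovo_contig_34019, had 31.9 to 55.5 CPM at 12° and 39.8 to 57.7 at 25°, with overlap and a log2 fold change of 0.14 ± 0.21 (edgeR adjusted p = 0.652). The next longest, denovo_contig_17543, had 42.0 to 43.1 CPM at 12° and 27.2 to 34.7 at 25°, without overlap, but its log2 fold change of -0.44 ± 0.13 was not called (edgeR adjusted p = 0.0278).

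The 3 downregulated contigs were KT3A contigs of 155 to 161 bp. KT3A_contig_995131 had 35.3, 31.9, and 25.5 CPM at 12° and 10.9, 15.1, and 13.4 at 25°, with 24.4 to 35.0 at 15°, 25.1 to 26.2 at 18°, and finally 21.6 to 29.6 at 21°. Only the 25° libraries lay apart from the controls, with a log2 fold change of -1.24 ± 0.17 (edgeR adjusted p = 0.000414) and -1.32 ± 0.18 on unique reads (edgeR adjusted p = 0.000378). KT3A_contig_940537 had 17.7, 16.3, and 17.8 CPM at 12° and 5.85, 8.36, and 8.80 at 25°, and the 21° libraries, at 7.30 to 12.5, already lay below the controls without a call. It fell by 1.17 on the log2 scale on total reads (edgeR adjusted p = 0.000704), while its unique reads, 38 to 48 per control library, gave -0.58 ± 0.37 (edgeR adjusted p = 0.267).

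KT3A_contig_717571 had 32.9, 28.9, and 15.7 CPM at 12° and 10.5, 5.89, and 9.86 at 25°, without overlap, and 9.24 to 30.2 at the middle temperatures. Its log2 fold change was -1.56 ± 0.29 (edgeR adjusted p = 0.00258) and its unique reads, at most 10 in any library, were too few to be tested. The call was lost without 12° replicate 2, 25° replicate 2, or 25° replicate 3, with adjusted p-values of 0.0116 to 0.0125. Scaling by library totals raised the count of downregulated contigs at 25° from 3 to 11. That scaling also lowered the median log2 fold change of all contigs tested, from -0.09 to -0.44. The count of 11 stands without the share over all contigs under the same scaling, and nothing is read from it.

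Since the totals of these contigs include reads that belong to other contigs too, the tests were repeated on unique reads alone. Of the 300 contigs, 280 had enough unique reads to be tested, and the 20 that did not had unique shares of at most 0.528%. On unique reads, 0 contigs were called at 15° and 0% of all contigs were, 1 was upregulated at 18° (0.027% of all contigs), 5 were upregulated at 21° (0.542%, with 0 downregulated against 0.065%), and 21 were upregulated and 2 downregulated at 25° (8.72% and 6.17%). Of the upregulated contigs, 0 at 18°, 1 at 21°, and 10 at 25° would also have been chosen from the controls alone, as would both downregulated ones. At 25°, 19 of the 26 contigs upregulated on total reads were also upregulated on unique reads, 5 were tested and not called, and 2 could not be tested. Of the 3 downregulated on total reads, 1 was downregulated on unique reads. In addition, KT3A_contig_598759 and denovo_contig_60460 were upregulated and denovo_contig_75447 was downregulated on unique reads only.

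For most contigs the 2 kinds of reads gave like fold changes. At 25° the log2 fold change on total reads lay within 0.5 of that on unique reads in 251 of the 280 contigs and within 1 in 268, and the sign was the same in 247. Unique reads are part of the total, so some likeness is built in. The 2 contigs whose fitted change on unique reads was furthest above that on total reads were KT3A_contig_866862 and KT3A_contig_870151, which had 0 unique reads in every control library, so that a larger rise of unique than of total reads is not shown for them. Against the count of 3 reads per control library that a count of 0 allows, their unique CPM at 25° was at least 27.0-fold and 17.1-fold higher, while their total CPM went from 1.75 ± 0.313 (SD, n = 3) to 96.5 ± 6.15 and from 1.71 ± 0.394 to 60.3 ± 9.62. The fitted values plotted for them depend on the prior count. KT3A_contig_925323 also had 0 unique reads in all control libraries, and its unique CPM was at least 13.5-fold higher at 25°.

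**Figure D3:**
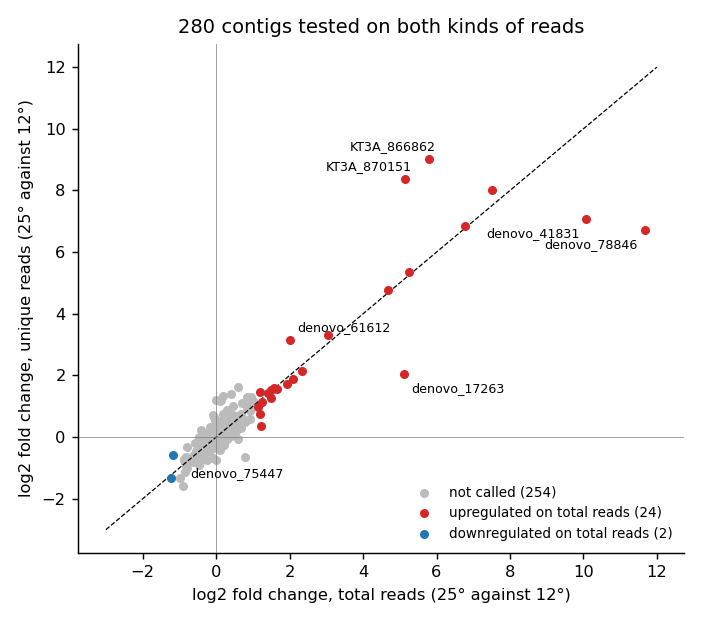
Log2 fold change at 25° against 12° on total reads and on unique reads for the 280 contigs tested on both, with contigs called on total reads in color and the dashed line marking equal values. Of the 280 contigs, 251 lie within 0.5 of the line, while denovo_contig_17263 (5.12 and 2.04), denovo_contig_41831 (10.08 and 7.09), and denovo_contig_78846 (11.68 and 6.72) lie below it. The heights of KT3A_contig_866862 and KT3A_contig_870151 rest on controls with 0 unique reads.

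Whether the balance of unique and shared reads changed was tested within libraries, as the interaction of read kind and temperature in edgeR, so that library size cancels. Of 7573 contigs with enough reads of both kinds, 280 were among the 300. At 15°, 0 had a higher and 0 a lower unique share at an adjusted p below 0.01 (0% of all tested in each direction), and 0 and 0 by limma. At an unadjusted p below 0.05 there were 0 and 1, against 132 and 150 of all 7573. A lower unique share was called in 1 contig at 18° (0.0264% of all tested), in 2 at 21° (0.0528%), and in 4 at 25° (0.502%). A higher unique share was called in 0 contigs at 18° (0% of all tested) and 21° (0.0264%), by limma also in 0, and in 1 contig at 25° (0.317%). At an unadjusted p below 0.05, 2 and 8 of the 280 were higher at 18° and 21°, against 174 and 226 of all 7573. Of the contigs with a lower share, 0 at 18°, 0 at 21°, and 1 at 25° would also have been chosen from the controls alone, as would the 1 with a higher share. By limma at 25°, 0 of the 280 were called higher and 2 lower, against 5 and 6 of all 7573. Among contigs chosen from the controls alone, limma called 0 in either direction at 25°. The log2 odds of a unique read changed by less than 1 at 25° in 266 of the 280 contigs.

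The largest change in unique share was that of denovo_contig_17263 (3612 bp). Its unique share was 90.8%, 87.6%, and 90.8% at 12°, 86.7%, 94.8%, and 84.8% at 15°, 41.2%, 41.2%, and 37.6% at 18°, 18.9%, 20.8%, and 23.2% at 21°, and finally 10.9%, 10.4%, and 10.4% at 25°. The 15° libraries overlapped the controls, and each further temperature formed a separate, lower step. The log2 odds of a unique read changed by -3.69 ± 0.17 at 18°, -5.02 ± 0.19 at 21°, and -6.19 ± 0.16 at 25° (edgeR adjusted p = 7.35e-07, 1.49e-07, and 9.04e-12). Its total reads were 393, 485, and 336 at 12°, 407, 233, and 198 at 15°, 735, 706, and 654 at 18°, 1530, 1666, and 1451 at 21°, and finally 9452, 9156, and 6335 at 25°. Of these, 357, 425, and 305 were unique at 12°, 303, 291, and 246 at 18°, 289, 347, and 337 at 21°, and finally 1027, 952, and 658 at 25°. Unique reads thus did not rise at 18° or 21°, where their log2 fold changes were -0.33 ± 0.14 and 0.08 ± 0.15 (edgeR adjusted p = 0.448 and 0.845), while total reads had risen by 2.19 ± 0.16 at 21° (edgeR adjusted p = 0.000223). At 25° total reads rose by 5.12 ± 0.21 and unique reads by 2.04 ± 0.20 (edgeR adjusted p = 2.42e-07 and 4.19e-05).

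In denovo_contig_41831 the unique share was 80.6%, 60.0%, and 62.5% at 12°, 61.1% to 71.9% at 15°, 21.0% to 24.5% at 18°, 11.5% to 14.3% at 21°, and finally 8.20% to 8.77% at 25°. Groups from 18° upward did not overlap the controls. The log2 odds changed by -3.80 ± 0.36 at 21° and -4.47 ± 0.35 at 25° (edgeR adjusted p = 0.000775 and 5.53e-06), and by -2.85 ± 0.36 at 18°, which missed the threshold (edgeR adjusted p = 0.0118). Unique reads of this contig also rose at 25°, by 7.09 ± 0.29 on the log2 scale (edgeR adjusted p = 1.66e-07), against 10.08 for total reads. Over the control libraries, denovo_contig_17263 and denovo_contig_41831 had unique shares of 89.5% and 67.4%. They passed the 50% limit only through their shared reads in heated libraries. A fall in unique share was needed for both to be among the 300. Nothing is read from the p-values of these falls or from the gaps between their total and unique reads.

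The other contigs called on unique share moved less. In denovo_contig_75447 (2095 bp), which the controls alone would also have chosen, the unique share was 47.5%, 44.7%, and 42.6% at 12°, 38.7% to 46.0% at the middle temperatures, and finally 24.7%, 28.8%, and 31.0% at 25°. The 25° libraries lay below all others, with a log2 odds change of -1.06 ± 0.14 (edgeR adjusted p = 0.000743). This contig was not called by limma. Its unique reads fell by 1.57 on the log2 scale and its total reads by 0.90, which was short of 2-fold. In denovo_contig_65920 (784 bp), which the controls alone would not have chosen, the unique share was 42.7% to 49.7% at 12° and 31.6% to 33.4% at 25°, without overlap (log2 odds change -0.77 ± 0.14, edgeR adjusted p = 0.00908). Total reads of that contig rose by 1.20 ± 0.18, whereas unique reads rose by 0.74 ± 0.19 and were not called (edgeR adjusted p = 0.0147).

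The 1 contig with a higher unique share was denovo_contig_61612 (1525 bp), which the controls alone would also have chosen. Its unique share was 36.5%, 29.0%, and 32.9% at 12°, 29.1% to 35.7% at 15°, 31.4% to 33.5% at 18°, 53.0%, 50.6%, and 41.3% at 21°, and finally 63.1%, 75.6%, and 72.1% at 25°. The 21° and 25° libraries lay above all controls, although the change at 21° did not pass the test (edgeR adjusted p = 0.306), and at 25° the log2 odds changed by 2.30 ± 0.20 (edgeR adjusted p = 1.64e-05). By limma the contig was not called at 25°. Unique reads were 227, 408, and 430 at 12° and 2015, 1657, and 1888 at 25°, a log2 rise of 3.13 ± 0.23 (edgeR adjusted p = 6.07e-06), against 2.02 ± 0.27 for total reads. The shared reads of this contig gave 0.69 ± 0.39 and were not called (edgeR adjusted p = 0.322).

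**Figure D4:**
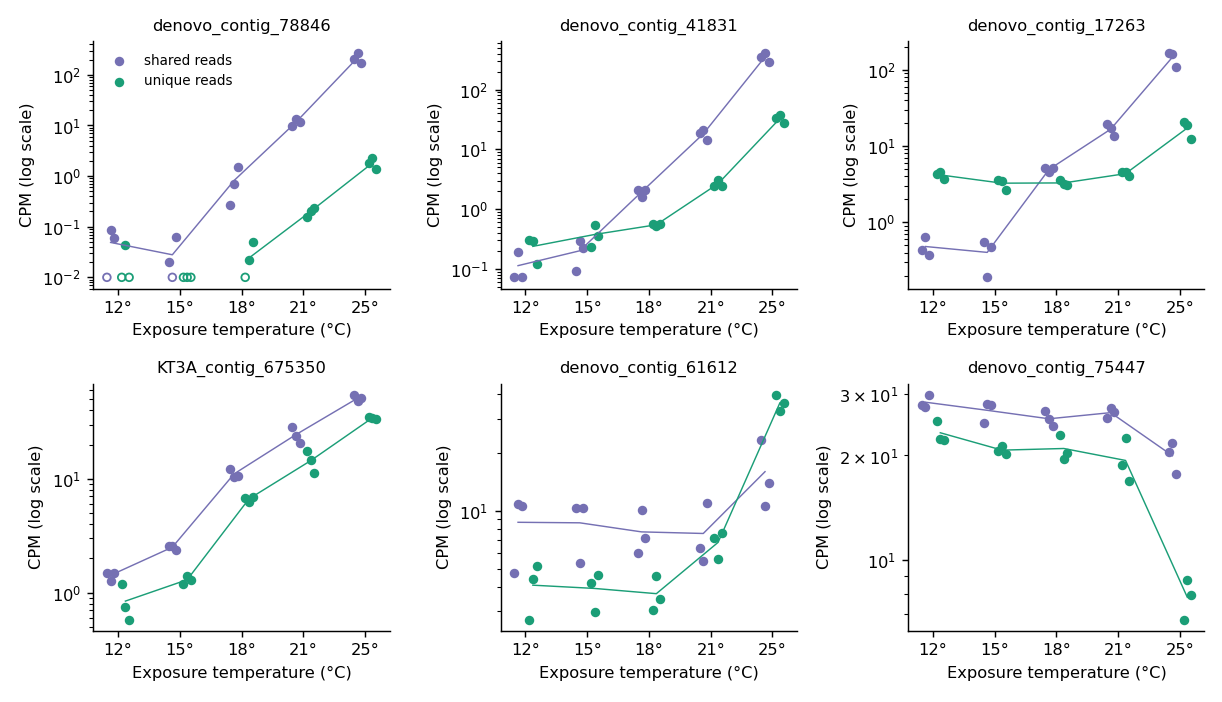
CPM (log axis) of shared and unique reads in each library for 6 contigs by exposure temperature, with lines through the means of 3 libraries and open symbols at the bottom for libraries with 0 reads. Shared reads of denovo_contig_17263 leave the unique reads behind from 18° upward, both kinds rise alike in KT3A_contig_675350, unique reads pass shared reads at 25° in denovo_contig_61612, and unique reads fall more than shared reads in denovo_contig_75447. A fall in unique share was needed for denovo_contig_17263 and denovo_contig_41831 to be chosen.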

How the data were processed

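RNAseq of gill RNA gave 15 libraries, with temperature and replicate number taken from the labels. The authors trimmed reads with Cutadapt, assembled contigs and aligned reads to them in CLC Genome Workbench. Per contig and library, the deposited values used are whole-number counts of total and of unique reads, without normalization. RPKM, computed by the authors, served only to compare levels per length. The table has 98 columns, and 51 that were left out repeat values or hold group means and the authors' fold changes and p-values from Baggerly's test.

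A minimum of 10 reads in 3 or more libraries was set, and each heated group was tested against 12° in a fit of 6 libraries, with edgeR 4.0.16 (R 4.3.3), TMM, glmQLFit, and glmQLFTest. The same filter and fit were used for unique reads. For unique share, unique and shared reads of each library were compared with library as a term, with the same minimum for each kind of read. Tests were first checked on simulated data. A larger spread between libraries than the controls showed left the test of unique share without calls in simulation. Standard errors are the log2 change divided by the square root of F. CPM used TMM over all 15 libraries. Further tools were DESeq2 1.42.0, limma 3.58.1, Python 3.11.15, pandas 2.3.3, and matplotlib 3.10.9.

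The contigs, tests, and rule for naming were chosen with earlier results of these data known. The rule names the 5 contigs with the most reads, those with extreme unique shares, the 2 longest, those at the limits of the choice, the largest called rises and falls at each temperature, the largest gaps between total and unique reads, and the largest called changes in unique share. All other contigs named were chosen after their values were seen. Alternatives were other filters, scalings, and thresholds, DESeq2 and limma, a fit of all 15 libraries, the replicate block, each library left out, unique or shared reads, and contigs chosen on the controls alone.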

Additional observations from a re-analysis of the deposited data

How the results depend on the processing

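The counts of called contigs at 15° stayed at 0 under the alternatives with adjusted p-values, while the unadjusted threshold gave the few contigs stated above. At 18°, the 3 upregulated contigs became 5 in a fit of all 15 libraries or at an adjusted p below 0.10, 6 with DESeq2, 1 on unique reads, 0 for contigs chosen on the controls alone, and 1 to 4 when a library was left out. At 21°, the 9 became 5 on unique reads, 1 for contigs chosen on the controls, and 8 to 10 with a library left out. At 25°, the 26 upregulated contigs became 11 for contigs chosen on the controls and 22 to 29 with a library left out, and the 3 downregulated became 11 with library totals, 6 for contigs chosen on the controls, and 3 to 4 with a library left out. For unique share, the 1 contig lower at 18° became 2 with a minimum of 50 reads, at an adjusted p below 0.10, and with the replicate block. The 2 lower at 21° became 1 with limma. At 25°, the 1 higher became 0 with limma and 5 at an adjusted p below 0.10, and the 4 lower became 7 with a minimum of 50 reads, 2 with limma, 9 at an adjusted p below 0.10, and 3 with any library left out. Over all 7573 contigs tested, 24 were higher and 38 lower, 5 and 6 with limma, and 73 and 133 at an adjusted p below 0.10. With a minimum of 50 reads, 46 of all 3177 were lower. The other counts of called contigs in this section stand without the share over all contigs, and nothing is read from them. Unique reads of the 300 contigs made up 0.236%, 0.233%, 0.232%, 0.228%, and 0.221% of all library reads from 12° to 25°, and contigs chosen on the controls held 1.01% of all reads at 21° and 0.939% at 25°. Library totals also lowered the median log2 fold change of all contigs tested at 25°, from -0.09 to -0.44. The cause of the moves between alternatives was not tested beyond what each alternative changes by construction.

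A fit with the replicate block called 3, 10, and 23 rises at 18°, 21°, and 25° and 2 falls at 25°, although no source states that a number marks a shared animal or batch. The numbers were not taken as pairing, since deviations of same-numbered libraries correlated at -0.656 to 0.687, over 0.1 in 5 of 12 pairs, and not every library correlated best with its own number. Of 194 alternatives for 13 fold changes of named contigs, 184 left the call in place, 10 lost it, and 0 reversed the direction. These contigs were named for their large changes. Every rise among the 13 was that of a contig that the controls alone would not have chosen. The tally is therefore not taken as evidence for the calls. The lost calls were KT3A_contig_717571 at 25° with the replicate block (log2 -1.54) and on shared reads (-1.74), KT3A_contig_866862 at 18°, denovo_contig_78846 at 21°, and KT3A_contig_940537 at 25° on unique reads, and 5 with a library left out. With 3 pools a temperature, p-values cover the spread between pools only.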

Other observations

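Contigs with steep rises in shared reads were also found outside the 300. At 25°, 49 contigs had at least 1000 shared reads and a rise of over 8-fold in shared CPM against 12°. Of these, 10 were among the 300 and 39 were not, 11 of the latter because they had fewer total reads and 28 because at least 50% of their reads were unique. The 10 held 53.0% of the 591463 shared reads that the 49 contigs had at 25°. A large part was built in, since the 300 were chosen for many reads and a low unique share with the 25° libraries included. The most shared reads lay on denovo_contig_74187 (259 bp, outside the 300), with 60 at 12° and 96920 at 25° over 3 libraries, beside 498 and 873296 unique reads. Which contigs share reads with which is not recorded in the table used here.

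A fall in unique share was also seen in denovo_contig_30586 (2468 bp, outside the 300, with 16049 reads and named after its values were seen). Its unique share was 97.6% to 98.7% at 12°, 97.6% to 98.4% at 15°, 82.3% to 85.0% at 18°, 53.4% to 61.3% at 21°, and finally 24.3% to 25.5% at 25°. Its unique reads were 743, 738, and 708 at 12° and 368, 365, and 556 at 25°, while its total reads were 761, 755, and 717 and 1443, 1499, and 2192. These counts are not scaled, and the 25° libraries had smaller effective sizes. In CPM, unique reads were 8.47 ± 0.475 (SD, n = 3) at 12° and 8.35 ± 1.94 at 25°, so a fall of unique reads is not shown. Total CPM went from 8.64 ± 0.488 to 33.3 ± 7.35.

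The 176-bp contigs KT3A_contig_866862 and KT3A_contig_870151 did not keep a fixed ratio of total reads, which ran from 0.459 to 3.42 over the 15 libraries with a median of 1.51.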
